A study of Mus musculus with 6 samples.

Results

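The cells described here were tumor-infiltrating CD8 T cells that carried messenger RNA of both Tcf7 and Pdcd1. Tcf7 encodes the transcription factor TCF1, and Pdcd1 encodes the inhibitory receptor PD-1. Among the tumor cells that passed the filters, called tumor base cells below (200 to 6000 detected genes, at most 3% mitochondrial counts, and at least 1 count each of Cd2, Cd8a and Cd8b1), those with at least 1 count of Tcf7 and at least 1 count of Pdcd1 were taken. They were 570 of 15744 tumor base cells, or 3.62%, with 379 from CD8-IFNγRKO mice and 191 from control mice. The base cells of all 4 gene expression libraries numbered 29156.

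Mice bore B16-OVA, a melanoma cell line that expresses ovalbumin, and tumors and draining lymph nodes (LNs) were taken at day 12. Control mice were CD8-Cre Rosa26Tomato. CD8-IFNγRKO mice (CD8-IFNgRKO in the labels) were CD8-Cre Rosa26Tomato IFNgR1flox/flox, so both genotypes carried the Cre, which acts in CD8-expressing cells, and the Tomato reporter, and they differed in the floxed gene of the IFNγ receptor chain 1. CD45+ CD3+ CD8+ Tomato+ cells were sorted, and cells of 3 mice per genotype went into 1 library for each tissue, and no assignment of cells to single mice was used here. The study's methods also name feature barcoding libraries, which were not analysed here. Each genotype was therefore treated as 1 library, no test between genotypes was run, and every interval below covers counting error only. A count is a unique molecular identifier (UMI), that is, 1 captured RNA molecule. The CD8-IFNγRKO tumor library held 104973053 UMIs in 12214 barcodes and the control tumor library 66786816 in 11369, and the LN libraries held 44373068 UMIs in 11298 barcodes (CD8-IFNγRKO) and 46414840 in 12979 (control). The filters left 8638 and 7106 base cells in the CD8-IFNγRKO and control tumors, and 6754 and 6658 in the LNs.

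T cells exposed to antigen for a long time lose function stepwise, a state called exhaustion, and gain inhibitory receptors such as PD-1, LAG-3 and TIM-3. Within that population, cells that keep TCF1 renew themselves, stay able to divide and give rise to TCF1-negative exhausted cells with more cytotoxic granule proteins. In tumors these are called stem-like or progenitor exhausted cells, while a TCF1-positive cell without PD-1 can also be naive or memory-like.

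The gene ablated in the knockout was examined first. Ifngr1 (chromosome 10, 19591949 to 19610229 in the RefSeq table of GRCm38.p6) stood at 284 CPM (UMIs of the gene per 1000000 UMIs) in Tcf7+ Pdcd1+ cells of CD8-IFNγRKO mice (95% Poisson interval 267 to 301) and at 776 in those of control mice (738 to 815), all UMIs of the cells being summed before scaling. The log2 ratio, with 1 CPM added to both levels here and below, was -1.45 in these cells (-1.56 to -1.34) and -1.60 in the other tumor base cells. The remaining UMIs do not measure how complete the deletion was, because 5′ reads can lie outside the deleted part of the gene. Ifngr2, the partner chain, was close to the limit of detection at 2.91 CPM (CD8-IFNγRKO) and 1.96 CPM (control).

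The T cell receptors of Tcf7+ Pdcd1+ cells placed many of them in the expanded clones of the tumor. Cells were assigned to a clone when V segment, J segment and CDR3 nucleotides of both chains matched, and 168 CD8-IFNγRKO and 76 control Tcf7+ Pdcd1+ cells had both. The receptors of the clones with the most such cells, numbered by that count, are printed because they tie them to their Tcf7-negative relatives. Capitals mark the bases between the first codon of the CDR3, for the conserved cysteine, and its last codon.
CD8-IFNγRKO clone 1, TRAV12D-3 TRAJ39: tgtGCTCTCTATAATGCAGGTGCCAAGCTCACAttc
CD8-IFNγRKO clone 1, TRBV13-3 TRBJ1-1: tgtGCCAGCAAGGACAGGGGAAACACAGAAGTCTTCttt
CD8-IFNγRKO clone 2, TRAV7D-2 TRAJ21: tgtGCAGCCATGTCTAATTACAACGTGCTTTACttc
CD8-IFNγRKO clone 2, TRBV14 TRBJ1-6: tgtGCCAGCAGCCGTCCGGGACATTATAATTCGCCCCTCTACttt
control clone 1, TRAV5-1 TRAJ16: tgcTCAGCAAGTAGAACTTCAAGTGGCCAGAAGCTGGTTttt
control clone 1, TRBV14 TRBJ1-1: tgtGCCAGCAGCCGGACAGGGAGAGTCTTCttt
control clone 2, TRAV12-3 TRAJ42: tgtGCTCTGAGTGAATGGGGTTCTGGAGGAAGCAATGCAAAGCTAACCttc
control clone 2, TRBV12-1 TRBJ2-4: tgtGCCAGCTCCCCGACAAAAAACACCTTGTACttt
control clone 3, TRAV7-5 TRAJ42: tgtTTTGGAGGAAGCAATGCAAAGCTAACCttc
control clone 3, TRBV13-3 TRBJ1-4: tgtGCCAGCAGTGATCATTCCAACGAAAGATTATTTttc

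Clone 1 of the CD8-IFNγRKO tumor had 30 Tcf7+ Pdcd1+ cells among 1200 cells, of which 1148 were Tcf7- Pdcd1+. Clone 2, the largest of that library with 1463 cells, had 17. In the control tumor clone 1 had 13 of 1009, and clone 2, the largest there with 1104 cells, had 7. These large clones thus consisted mostly of Tcf7- Pdcd1+ cells. Control clone 3 was built differently, with 5 Tcf7+ Pdcd1+ cells among only 9 cells. Clones 3 and 4 of the CD8-IFNγRKO library, with 9 and 7 Tcf7+ Pdcd1+ cells, carried the same beta CDR3 with different alpha chains, printed next because the beta sequence recurred.
CD8-IFNγRKO clones 3 and 4, beta, TRBJ2-5: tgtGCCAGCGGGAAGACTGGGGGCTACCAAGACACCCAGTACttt
CD8-IFNγRKO clone 3, TRAV8D-2 TRAJ7: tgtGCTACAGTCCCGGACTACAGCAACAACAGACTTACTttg
CD8-IFNγRKO clone 4, TRAV7D-5 TRAJ7: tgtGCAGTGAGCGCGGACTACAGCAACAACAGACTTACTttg
That beta sequence was found in 704 cells of 4 clones, 20 of them Tcf7+ Pdcd1+.

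Of the Tcf7+ Pdcd1+ cells with both chains, 78.6% in the CD8-IFNγRKO tumor (95% exact binomial interval 71.6 to 84.5) and 71.1% in the control tumor (59.5 to 80.9) shared their clone with a Tcf7-negative cell. Tcf7+ Pdcd1- cells did so in 9.67% and 20.5% of cases. The clonal makeup of Tcf7+ cells differed with the Pdcd1 message. In all, 85.7% and 79.5% of the Tcf7+ Pdcd1- cells were the only cell of their clone, against 16.7% (11.4 to 23.2) and 28.9% (19.1 to 40.5) of the Tcf7+ Pdcd1+ cells. Among Tcf7- Pdcd1+ cells, 0.423% and 0.886% were alone. Clones of at least 20 cells held 67.3% (59.6 to 74.3) of the CD8-IFNγRKO and 51.3% (39.6 to 63.0) of the control Tcf7+ Pdcd1+ cells, compared with 96.7% and 91.1% of the Tcf7- Pdcd1+ cells. Intervals of the genotypes overlapped for each of these shares in Tcf7+ Pdcd1+ cells. The number of receptors depends on the cells sampled, so the distinct clones expected among 60 drawn cells were computed. They were 33.5 (CD8-IFNγRKO) and 36.6 (control) in Tcf7+ Pdcd1+ cells, between 58.5 and 55.3 in Tcf7+ Pdcd1- cells and 18.3 and 17.1 in Tcf7- Pdcd1+ cells.

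**Figure D1:**
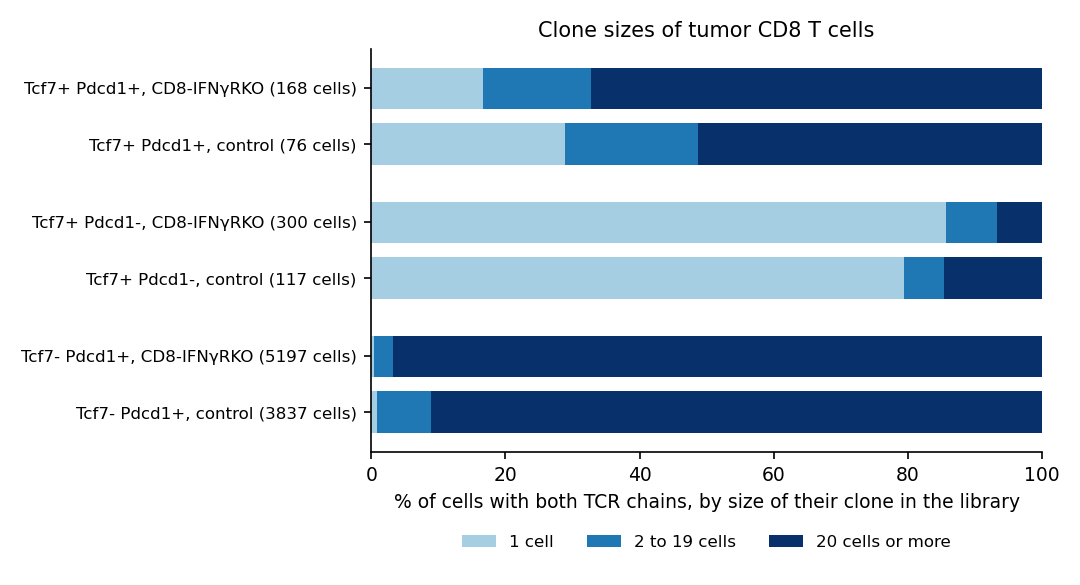
Percent of cells with both receptor chains (x axis) by the size of their clone in the library (colours: 1 cell, 2 to 19 cells, 20 cells or more), with 1 bar for each group of tumor base cells and genotype. Tcf7+ Pdcd1+ cells sat between the other groups, with 67.3% and 51.3% in clones of at least 20 cells.

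In the CD8-IFNγRKO tumor 24 of the 25 clones of at least 20 cells had a Tcf7+ Pdcd1+ cell, and in the control tumor 13 of 22. The 10 largest clones held 72.6% of all cells with both chains in the CD8-IFNγRKO tumor and 78.0% in the control tumor, but 49.4% and 35.5% of the Tcf7+ Pdcd1+ cells. Of these 10 clones, 10 and 6 had a Tcf7+ Pdcd1+ cell. More such cells carried a receptor in the CD8-IFNγRKO library, which by itself raises these counts. No clone occurred in both libraries (0 shared, of 429 and 260 distinct clones).

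Tcf7+ Pdcd1+ cells made up 4.39% of the tumor base cells in the CD8-IFNγRKO library (379 of 8638, 3.97 to 4.84) and 2.69% in the control library (191 of 7106, 2.32 to 3.09), a difference of 1.70 percentage points (1.12 to 2.28). Counting error was smaller than this difference, while the spread between mice is unknown. Tcf7+ Pdcd1- cells were also a larger share in CD8-IFNγRKO, 5.31% against 2.55%, and Tcf7- Pdcd1+ cells were 83.7% and 85.5%. Within all Tcf7+ cells, 45.2% (41.8 to 48.7) and 51.3% (46.1 to 56.5) had a Pdcd1 UMI. Both kinds of Tcf7+ cell were thus larger shares in CD8-IFNγRKO.

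A cell sequenced more deeply has more chances to show both genes, and the median tumor base cell had 9399.5 UMIs in the CD8-IFNγRKO library against 6306 in the control library. The Tcf7+ Pdcd1+ cells themselves had similar medians, 7983 (quartiles 3922 and 13985) and 8274 (4678 and 13774). When each cell was thinned to 1600 UMIs and shallower cells were left out (278 and 704), the shares fell to 1.10% (0.888 to 1.35) and 0.640% (0.460 to 0.868). At 5000 UMIs, with 2229 and 2642 cells left out, they were 2.48% (2.11 to 2.89) and 1.61% (1.26 to 2.03). At both depths the CD8-IFNγRKO share stayed the higher one, and the intervals did not overlap. Across 10 bins of depth the share ran from 2.24% to 7.09% in the CD8-IFNγRKO library and from 1.19% to 5.64% in the control library, and the order was not the same at every depth. It was higher in CD8-IFNγRKO in 8 of the 10 bins, and the intervals were apart in 3 of them, all under 6202 UMIs (3.83% against 1.19%, 6.22% against 1.37% and 4.85% against 1.61%). In the other bins they overlapped, and in 2 of the 3 deepest, from 11996 UMIs up, control was the higher one (2.24% against 2.56% and 4.71% against 5.64%).

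**Figure D2:**
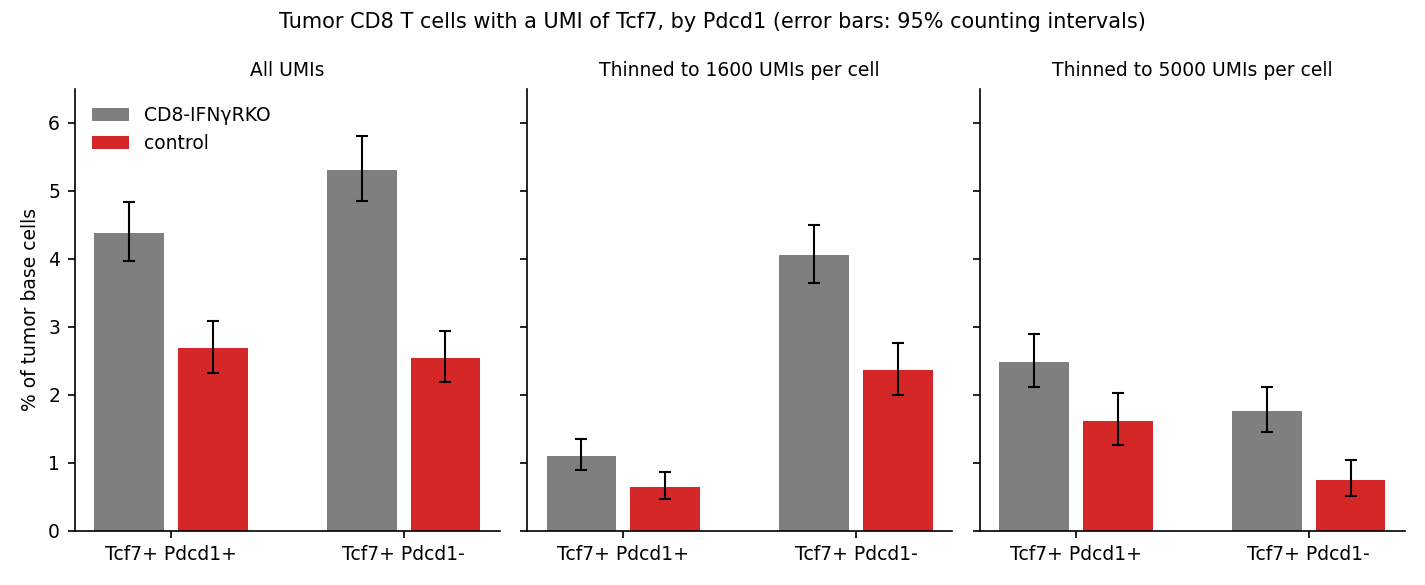
Share of tumor base cells (y axis, percent, with 95% exact binomial intervals) by genotype, for all UMIs and after thinning to 1600 and 5000 UMIs a cell. For Tcf7+ Pdcd1+ cells, 4.39% against 2.69% became 1.10% against 0.640% at 1600 UMIs.

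In the draining LNs the same rule found 20 of 6754 base cells (0.296%) in CD8-IFNγRKO and 22 of 6658 (0.330%) in control. These few cells allow only coarse levels, and the genes in which they were unlike the tumor cells stood beside others in which they were not. Ccr7 stood at 520 and 432 CPM, while Entpd1 had no UMI and Havcr2 and Gzmb had 0 UMIs (CD8-IFNγRKO) and 1 UMI (control), where the limit that a count of 0 allows was 18.2 and 19.4 CPM. Lag3, at 36.3 and 19.4 CPM, was also far below the 421 and 604 CPM of the tumor cells with the same pair of genes. Tox, a factor of the exhaustion program, was at 182 and 71.0 CPM against 118 and 103 in the tumor, Cxcr3 at 66.6 and 64.5 against 87.5 and 74.6, and Xcl1 at 405 and 77.4 against 310 and 113. Ctla4 was at 176 and 168 against 382 and 516.

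The membership of many cells hung on a single molecule. Tcf7 was seen as 1 UMI in 188 CD8-IFNγRKO cells (49.6%) and 96 control cells (50.3%), and as 3 or more in 106 and 47. For Pdcd1, 247 cells (65.2%) and 134 cells (70.2%) had at least 3 UMIs. Just outside the threshold, Pdcd1+ cells with 0 Tcf7 UMIs had 37.2 and 48.2 CPM of Ccr7, a homing receptor of naive and stem-like T cells. Just inside it, with 1 Tcf7 UMI, Ccr7 was 211 and 220 CPM, and with 3 or more it was 367 and 496. Slamf6, a surface marker of stem-like cells, went from 5.83 and 3.83 CPM through 34.0 and 17.5 to 58.3 and 61.7. In the other direction, cells with 0 Pdcd1 UMIs and some Tcf7 had 36.4 CPM and 102 CPM of Lag3. Free RNA as a source of single UMIs could not be bounded well, because only 18 and 31 tumor barcodes lacked all 9 T cell genes examined. None of them had both genes, which allows a share of up to 16.7% and 9.68% (3 over the number of barcodes, not exact). Their medians were 1023.5 and 807 UMIs. Of these barcodes, 2 and 1 had a Tcf7 UMI and 4 and 3 a Pdcd1 UMI.

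Some technical measures moved with the group, and their part in the results was not tested. A T cell receptor contig was found for 50.4% (45.2 to 55.5) of the CD8-IFNγRKO and 44.0% (36.8 to 51.3) of the control Tcf7+ Pdcd1+ cells, fewer than among Tcf7- Pdcd1+ cells (76.7% and 68.5%) or Tcf7+ Pdcd1- cells (85.6% in each). Under 10000 UMIs the Tcf7+ Pdcd1+ share was 63.6% and 63.5%, and at 10000 or more it was 30.5% and 14.5%, where Tcf7- Pdcd1+ cells had 76.2% and 43.9%. Cells without a contig were deeper, with medians of 10815.5 and 11988 UMIs against 5527 and 5259. Cells with a pair of beta chains, as a droplet with more than 1 T cell can show, were 4.30% (1.87 to 8.30) and 4.82% (1.33 to 11.9) of those with a beta chain, and 2.71% and 1.92% of the other base cells. Barcodes shared between the tumor libraries numbered 169. A barcode found in another library occurred in 15 of 379 CD8-IFNγRKO and 10 of 191 control Tcf7+ Pdcd1+ cells. In the other base cells these were 359 of 8259 and 345 of 6915, so this measure hardly differed between the groups.

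Markers of other cell types were low. The 8 B cell genes summed to 85.9 CPM in CD8-IFNγRKO and 46.1 CPM in control Tcf7+ Pdcd1+ cells, against 41.7 and 10.4 in the other base cells. Ighm, the constant region of IgM, led with 51.0 and 30.9 CPM, the defining markers Ms4a1 and Pax5 were at 0, and 5 and 4 of the genes in all were at 0. In Tcf7+ Pdcd1- cells the sum was 127 and 97.8 CPM. The 15 myeloid genes summed to 72.9 and 60.4 CPM against 42.9 and 115, led by Cd74 at 35.1 and 32.4, with 3 and 5 genes at 0. The 10 NK and γδ T cell genes gave 35.9 and 25.0 CPM against 29.0 and 13.9, led by Klra7 at 16.1 and 14.7, with Ncr1 at 0. CD4 and regulatory T cell genes gave 11.1 and 10.3 CPM, led by Cd4 at 5.02 and 4.42, and melanoma and stromal genes gave 15.9 and 15.7, against 16.0 and 18.5 for the former and 6.79 and 8.23 for the latter in the other base cells. The melanoma and stromal sum was led by Pecam1 at 12.9 and 10.8. The B cell sum and the melanoma and stromal sum were thus above those of the other base cells in both libraries with intervals apart, as were the myeloid sum in CD8-IFNγRKO and the NK and γδ T cell sum in control. The myeloid sum in control and the CD4 and regulatory T cell sum in both libraries were below them.

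The next comparison was of Tcf7+ Pdcd1+ cells with the other tumor base cells of the same library. The cells were chosen by their own UMIs, so these ratios are a description. Tcf7 itself (chromosome 11, 52246527 to 52283383) was at 215 and 201 CPM, and Pdcd1 (chromosome 1, 94038305 to 94052553) was at 544 and 652 CPM, a little below the other cells (622 and 823). Of genes with at least 50 CPM in either group and 100 UMIs over both, 25 of 3101 (0.806%) were at least 2-fold higher in Tcf7+ Pdcd1+ cells of the CD8-IFNγRKO tumor and 5 (0.161%) at least 2-fold lower. In the control tumor these were 13 of 3019 (0.431%) and 4 (0.132%). Both libraries had 9 of 2859 genes (0.315%) at least 2-fold higher and 0 of 2859 (0%) at least 2-fold lower. The median log2 ratio over all these genes was -0.02 and -0.01. Their counting intervals lay above 0 for 21.9% in CD8-IFNγRKO and 16.3% in control and below 0 for 25.6% and 20%, and over all genes with at least 20 UMIs, the floor of the groups below, for 13.2% and 9.06% above and 9.77% and 7.73% below. Of the 2859 genes, 1925 (67.3%) had the same sign in both libraries.

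Transcription factors of stem-like cells went with Tcf7. Of 12 with at least 20 UMIs, 12 were higher in CD8-IFNγRKO (11 with an interval above 0, median log2 ratio 1.01) and 11 in control (10 above 0, median 0.81). Id3, which restrains effector differentiation, was at 18.5 CPM against 3.11 in the CD8-IFNγRKO tumor and 12.8 against 0.818 in the control tumor. Lef1, the closest relative of TCF1, was at 42.8 against 20.2 and 47.6 against 21.6 (log2 ratios 1.05 and 1.11). Bach2, a repressor of effector genes, was at 24.0 against 7.97 and 32.4 against 13.6 (1.48 and 1.20). All 3 were higher in both libraries. Klf2, which keeps homing receptors on, had 512 against 227 CPM and 289 against 164 CPM (1.17 and 0.82), and Klf3, a related factor, 32.2 against 7.12 and 32.4 against 3.60. Satb1, a chromatin organizer of early T cells, had 94.1 against 42.7 and 94.2 against 53.7 (1.12 and 0.80).

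The surface and secreted markers of stem-like cells were mostly higher too. Of 18 such genes 18 were higher in CD8-IFNγRKO (15 with an interval above 0, median 1.17) and 13 in control (13 above 0, 2 below, median 1.21). Ccr7 was at 259 CPM against 53.8 in CD8-IFNγRKO and 334 against 59.8 in control, log2 ratios of 2.25 (2.17 to 2.37) and 2.46 (2.36 to 2.60), the highest of all genes past the floors by the mean of both libraries. The receptor leads T cells to LNs. Slamf6, used to sort stem-like cells, was at 42.0 against 6.63 and 29.9 against 4.54 (2.50 and 2.48). Il7r, the receptor of the survival cytokine IL-7, was at 110 against 44.8 and 128 against 58.6 (1.28 and 1.11). Ccr7, Slamf6 and Il7r differed in the same direction and by similar amounts in both genotypes. This did not hold for the whole group, as 5 of the 18 genes were lower in control. Cxcr5, which marks progenitor exhausted cells in chronic infection, stayed low at 2.91 and 2.45 CPM against 0.65 and 0.31.

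The remaining genes with the 10 highest ratios were of several kinds. Emb, the adhesion molecule embigin, was at 224 CPM against 61.6 in CD8-IFNγRKO and 257 against 79.9 in control (1.85 and 1.67). Ssh2, a cofilin phosphatase, had ratios of 1.50 and 1.45, Cd7, a T cell surface protein, 1.40 and 1.15, Gpr18, a lipid-sensing receptor of lymphocytes, 1.38 and 1.06, and Gramd3, a GRAM domain protein, 1.20 and 1.03. Socs3, an inhibitor of cytokine signaling, was at 111 against 43.7 and 105 against 44.4 (1.32 and 1.23). Cxcr3, the receptor for the IFNγ-induced chemokines CXCL9 and CXCL10, was at 87.5 against 30.9 CPM in CD8-IFNγRKO (1.47) and at 74.6 against 42.7 in control (0.79). Of the 20 genes with the highest and lowest ratios, 7 in CD8-IFNγRKO and 10 in control moved by over 1.5 times with membership called after thinning, 4 (Gzme, Gzmf, Spp1 and Xcl1) and 2 (Ccl3 and Xcl1) of them changing sign, and 5 and 13 did so among cells with a receptor contig with no change of sign.

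**Figure D3:**
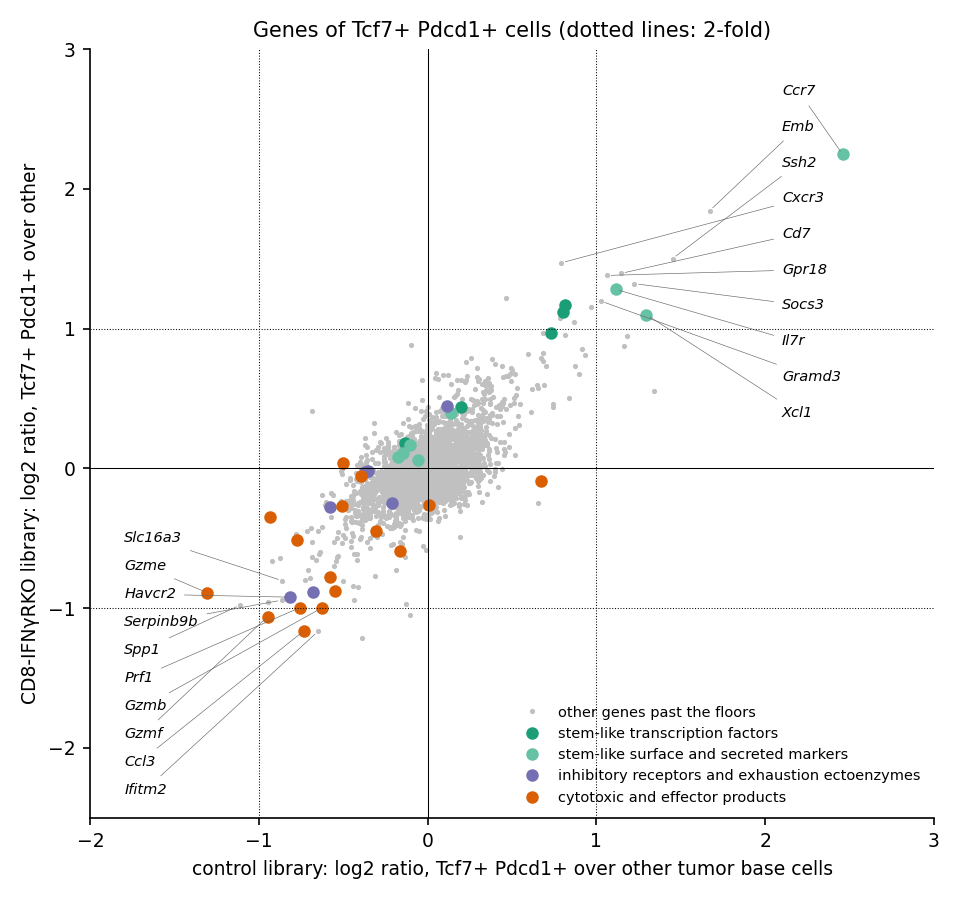
Log2 ratio of pooled CPM, Tcf7+ Pdcd1+ over other tumor base cells, in the control library (x axis) and the CD8-IFNγRKO library (y axis), with 1 point a gene, 4 gene groups coloured and the 10 highest and 10 lowest genes named. Ccr7 lay at 2.46 and 2.25, and most cytotoxic genes lay in the lower left.

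Genes of homing and residence were higher more often than lower. Of 20 genes, 14 were higher in CD8-IFNγRKO (14 with an interval above 0) and 13 in control (11 above 0), with medians of 0.53 and 0.35. S1pr1, which lets T cells leave tissue, was at 32.5 CPM against 6.72 and 37.3 against 6.20 (2.12 and 2.41). Cxcr4 (1.44 and 1.63), a receptor of stromal chemokine, and the integrin chains Itgb1 (0.81 and 0.93) and Itgb7 (0.82 and 0.68) were higher as well. The residence-associated chemokine receptor Cxcr6 was lower, at 350 against 504 and 496 against 799 (-0.53 and -0.69). Itgae, the CD103 integrin chain of tissue-resident cells, was low but higher, at 2.38 and 4.42 CPM against 0.344 and 0.470, with 9 UMIs in the Tcf7+ Pdcd1+ cells of each library and both intervals above 0.

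Inhibitory receptors were present at high levels, and more of them stood below the other cells than above, most clearly in control. Of 13 genes of this group, 9 were lower in CD8-IFNγRKO (5 with an interval below 0, median -0.16) and 10 in control (9 below 0, median -0.37). Intervals lay above 0 for 4 genes in CD8-IFNγRKO, so that library was nearly evenly split, and for 2 in control. Havcr2, which encodes TIM-3 and marks the more differentiated exhausted cells, was at 113 CPM against 215 and 176 against 310 (-0.92 and -0.81). Entpd1, the ectoenzyme CD39, was at 60.8 against 113 and 76.1 against 122 (-0.88 and -0.68). Both were thus lower than in the other cells but well above the levels of Tcf7+ Pdcd1- cells (4.10 and 23.0 CPM of Havcr2, 5.13 and 10.1 CPM of Entpd1). Lag3 was at 421 against 510 and 604 against 902 (-0.28 and -0.58), and Ctla4 at 382 against 453 and 516 against 598 (-0.25 and -0.21). The exhaustion factor Tox (0.13 and -0.13) was nearer to equal levels in both libraries, and Tigit (-0.03 and -0.37) in CD8-IFNγRKO only. Cd160, another inhibitory receptor, was higher (0.45 and 0.12).

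The cytotoxic and effector products made up most of the lowest genes. Of 24 genes, 19 were lower in each library (15 intervals below 0 in CD8-IFNγRKO and 18 in control), with medians of -0.48 and -0.56. Gzmb, granzyme B, stood at 2487 CPM against 4972 in CD8-IFNγRKO and 2197 against 3400 in control, log2 ratios of -0.999 (-1.03 to -0.97) and -0.63 (-0.67 to -0.59). Prf1, the pore-forming perforin, was at 512 against 1021 and 697 against 1178 (-0.99 and -0.76). Even so, Gzmb was one of the abundant messages of these cells. Other granzymes of the same gene cluster, Gzmf (134 against 281 and 353 against 684, ratios -1.06 and -0.95) and Gzme (-0.89 and -1.31), were lower too. However, with membership called after thinning both were higher in CD8-IFNγRKO (1.01 and 1.10). With at least 2 UMIs of each gene of the rule Gzmf was at -2.42 in CD8-IFNγRKO. The chemokine gene Ccl3 was at 198 against 444 and 309 against 515 (-1.16 and -0.73, the latter 0.05 after thinning). Spp1, which encodes osteopontin, was at 62.1 against 123 and 177 against 383 (-0.98, or 0.23 after thinning, and -1.11), and Ifng at -0.77 and -0.58. Serpinb9b, of the serine protease inhibitor family (-0.94 and -0.86), Slc16a3, a lactate exporter (-0.80 and -0.86), and Ifitm2, an antiviral membrane protein (-1.17 and -0.65), complete the 10 lowest. In each library 5 of the 24 genes were higher, 3 of them with an interval above 0. Gzmm, granzyme M, was so in both, at 17.4 CPM against 1.66 and 6.38 against 0.975. In control Gzma, at 70.2 against 43.8, and Klrg1, a receptor of differentiated effector cells, at 14.2 against 4.70, were the others, and in CD8-IFNγRKO they were Ccl5, at 2838 against 2761, and Il2, at the low level of 2.64 against 0.842.

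Effector transcription factors were mixed: 10 of 19 were higher in CD8-IFNγRKO (median 0.05) and 7 of 19 in control (median -0.11). Eomes, a T-box factor of memory and exhausted cells, had ratios of 0.39 and 0.75, whereas Prdm1, which encodes the terminal differentiation factor BLIMP-1, had -0.64 and -0.88, and Id2, the effector counterpart of Id3, -0.38 and -0.45. Cell cycle genes were mostly lower, 24 of 26 in CD8-IFNγRKO (22 with an interval below 0, median -0.26) and 20 of 26 in control (13 below 0, median -0.19). Mki67, the proliferation marker Ki-67, was at 170 against 184 CPM and 112 against 126, with intervals of the ratio that reached 0 or above (-0.23 to 0.00 and -0.36 to 0.02). Glycolysis genes were lower in 15 of 15 cases in CD8-IFNγRKO (14 below 0, median -0.35) and 13 of 15 in control (11 below 0, median -0.16).

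Interferon genes did not go one way. Of 39 interferon response genes, 34 were higher in Tcf7+ Pdcd1+ cells of the CD8-IFNγRKO tumor (28 with an interval above 0, median 0.33) and 25 in those of the control tumor (13 above 0, 7 below, median 0.10). Ifit3, an antiviral gene that type I interferon induces strongly, was at 61.3 CPM against 27.8 and 46.1 against 23.2 (1.11 and 0.96). Irf7, the amplifier of that response, had 0.61 and 0.37. Irf1, a transcription factor that IFNγ induces, had 0.44 and 0.00. Gbp2, a guanylate-binding protein, was higher in both (0.67 and 0.49), and Irf8 lower (-0.40 and -0.49). Ifngr1 itself was slightly higher than in the other cells, 284 against 236 CPM and 776 against 716 CPM (0.27 and 0.12), and Tcf7+ Pdcd1- cells had more, 486 and 1283 CPM.

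Further lists gave smaller shifts. Immediate early genes, which respond within minutes to stimulation or handling, were higher in 14 of 15 (median 0.43) and 11 of 15 cases (median 0.16). Wnt pathway genes had medians of 0.20 and 0.01, heat shock genes 0.01 and 0.09, costimulatory receptors 0.03 and -0.16, cytokine receptors 0.06 and -0.02, and survival genes -0.06 and -0.02. T cell identity genes, such as those of the CD3 chains, were lower in 12 of 13 cases in control (median -0.20) and 7 of 13 in CD8-IFNγRKO (median -0.01). Genes of the IFNγ receptor and its proximal signaling had medians of 0.32 and 0.16, with 9 of 10 higher in each library. Of a stem-like signature that the study used, 46 of 49 genes were higher in CD8-IFNγRKO (median 0.66) and 41 of 48 in control (median 0.49). The exhaustion signature the study used gave 27 higher and 41 lower of 68 genes in CD8-IFNγRKO (median -0.09) and 29 and 38 of 67 in control (median -0.10).

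For most genes the level in Tcf7+ Pdcd1+ cells lay between those of the neighbouring groups, the Tcf7+ Pdcd1- and the Tcf7- Pdcd1+ cells. This held for 2317 of 3101 genes (74.7%) in CD8-IFNγRKO and 1949 of 3019 (64.6%) in control. Ccr7, for example, was at 708 and 875 CPM in Tcf7+ Pdcd1- cells and at 37.2 and 48.2 in Tcf7- Pdcd1+ cells, and Gzmb was at 388 and 296 CPM in the former and 5090 and 3462 in the latter. How far droplets with more than 1 cell took part in this was not tested. Genes above both neighbours, with intervals that did not overlap, numbered 36 of 3101 in CD8-IFNγRKO and 25 of 3019 in control. Those below both neighbours numbered 2 and 10, with 0 in both libraries. Above in both libraries were 5 genes: Xcl1, Nrn1, Gdi2, Hsp90ab1 and Mrps6, a comparison added after the values were seen.

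Xcl1, a chemokine that attracts cross-presenting dendritic cells, was at 310 CPM in CD8-IFNγRKO Tcf7+ Pdcd1+ cells, against 190 in Tcf7+ Pdcd1- and 142 in Tcf7- Pdcd1+ cells. In the control tumor it was at 113 against 40.3 and 46.0. Against all other base cells its log2 ratio was 1.10 and 1.30, and it was -0.07 and -0.33 when the Tcf7+ Pdcd1+ cells were those called after thinning to 1600 UMIs. Nrn1, which encodes the membrane-anchored neuritin found on T cells with restrained responses, was at 51.8 against 9.75 and 21.9 in CD8-IFNγRKO and 95.7 against 15.8 and 70.2 in control. In each library Nrn1 was thus higher in Tcf7+ Pdcd1+ cells than in either neighbouring group, while Tcf7- Pdcd1- cells were not compared. For Xcl1 in CD8-IFNγRKO that held for the cells at the threshold, with 497 CPM at 1 Tcf7 UMI, 198 (171 to 227) at 2 and 172 (149 to 196) at 3 or more, against 190 (171 to 211) in the Tcf7+ Pdcd1- cells, so that beyond 1 Tcf7 UMI the intervals overlapped. In control it was 108, 105 and 131 CPM. Gdi2, a regulator of vesicle traffic, Hsp90ab1, a chaperone, and Mrps6, a mitochondrial ribosomal protein, exceeded both neighbours by less. Slamf6 in Tcf7+ Pdcd1+ cells of CD8-IFNγRKO mice (42.0 CPM) was near that of Tcf7+ Pdcd1- cells (38.5), and in control mice it was lower (29.9 against 46.0).

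The Tcf7+ Pdcd1+ cells varied among themselves along the same axis. Cells with a receptor contig had more Ccr7 than cells without, 394 against 177 CPM in CD8-IFNγRKO and 646 against 230 in control. S1pr1 was at 41.3 against 27.2 and 76.5 against 24.2, and Slamf6 at 56.0 against 33.5 and 78.5 against 13.7. Havcr2 went the other way, 72.1 against 138 and 60.8 against 214, as did Gzmb, 1718 against 2954 and 795 against 2665, and Prf1, 292 against 645 and 318 against 823. Cells with a contig were thus nearer to Tcf7+ Pdcd1- cells, and the deeper cells without one nearer to Tcf7- Pdcd1+ cells. Xcl1 was at 453 against 223 in CD8-IFNγRKO and 110 against 115 in control.

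**Figure D4:**
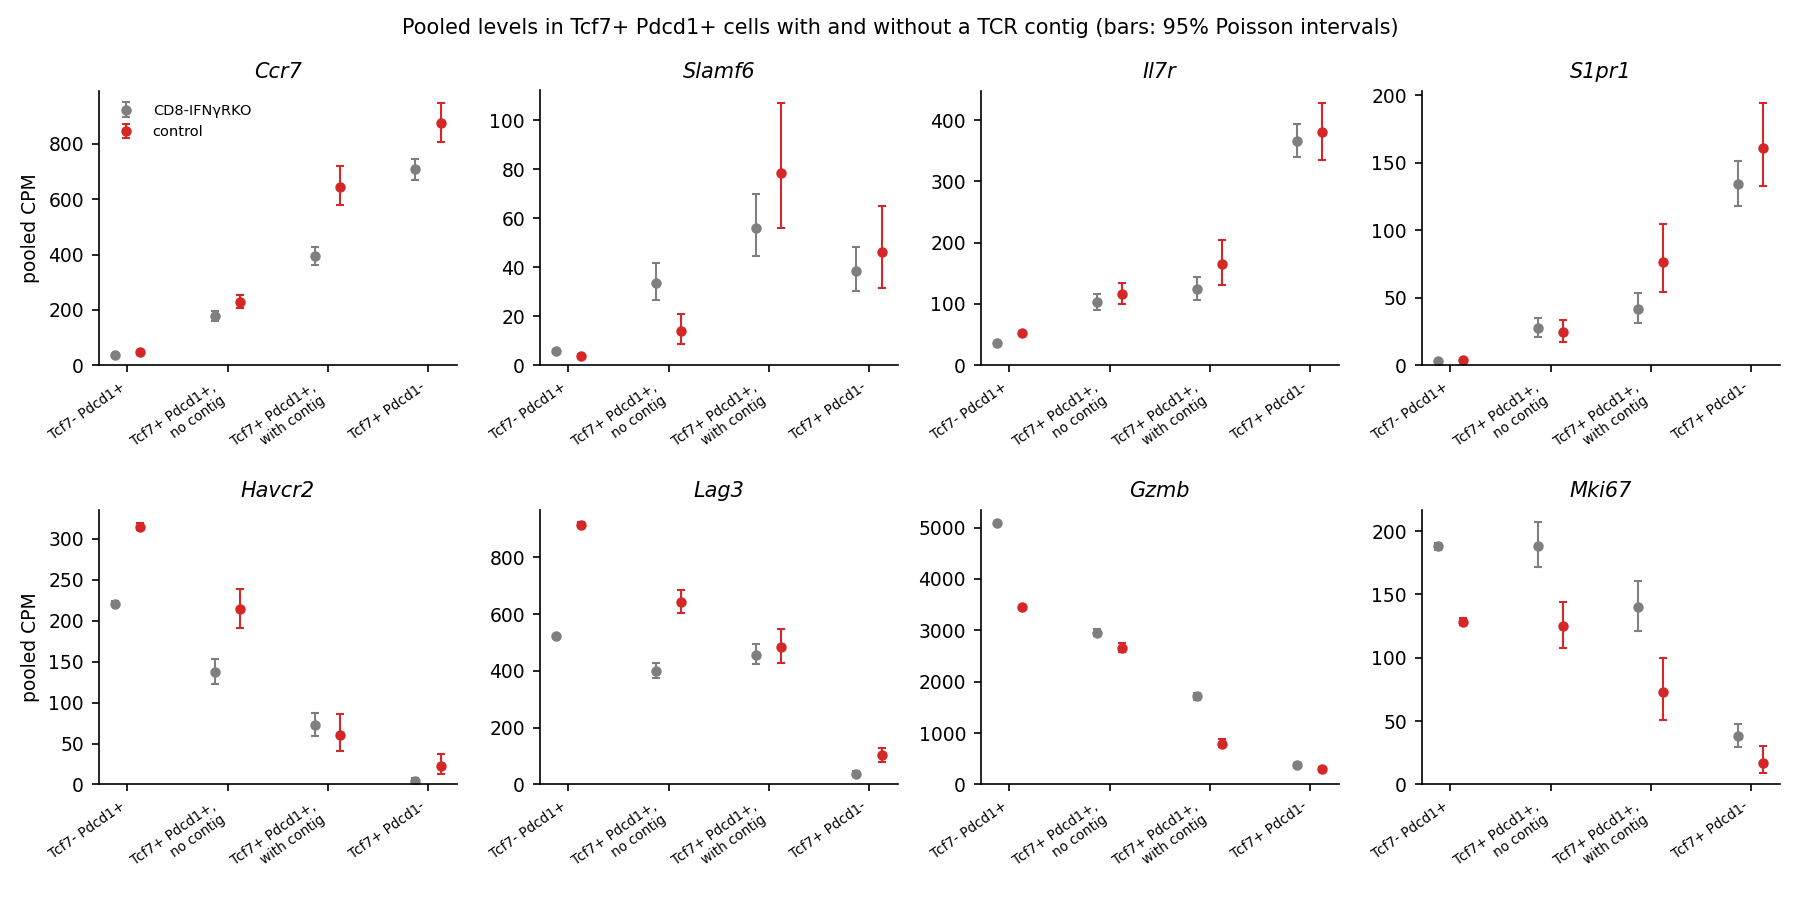
Pooled CPM (y axes, linear, 95% Poisson intervals) of 8 genes in Tcf7- Pdcd1+ cells, Tcf7+ Pdcd1+ cells without and with a receptor contig, and Tcf7+ Pdcd1- cells, by genotype. Ccr7 climbed along this order in both libraries, for example 177 and 394 CPM in CD8-IFNγRKO Tcf7+ Pdcd1+ cells, and Gzmb declined.

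A Havcr2 UMI was found in 159 of 379 CD8-IFNγRKO and 104 of 191 control Tcf7+ Pdcd1+ cells, and these cells were deeper (medians of 13069 and 11132.5 UMIs against 5239 and 5313). At the level of single cells, stem-like and exhausted markers met in the same barcode. With each cell thinned to 1600 UMIs, at least 1 of 9 stem-like and at least 1 of 8 exhausted markers were seen together in 51.5% (46.3 to 56.7) of CD8-IFNγRKO and 50.8% (43.4 to 58.2) of control Tcf7+ Pdcd1+ cells, against 22.6% and 29.1% of Tcf7+ Pdcd1- and 16.5% and 17.5% of Tcf7- Pdcd1+ cells. Without thinning the shares were 83.6% and 88.0%, 44.0% and 49.7%, and 50.5% and 48.7%. The choice of cells by a gene of each kind raises the first pair of values.

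The last comparison was between genotypes within Tcf7+ Pdcd1+ cells. Of 3090 genes past the floors, 11 (0.356%) were at least 2-fold higher and 19 (0.615%) at least 2-fold lower in CD8-IFNγRKO, and the median over all was 0.03 (0.02 in the other base cells). Counting intervals lay above 0 for 19.9% of these genes and below 0 for 15.4%, or 11.3% and 7.91% of all genes with at least 20 UMIs. Stem-like transcription factors had a median of -0.07 (3 of 12 higher), stem-like surface markers -0.19 (5 of 17 higher) and inhibitory receptors -0.31 (10 of 13 lower, 6 with an interval below 0). Cell cycle genes lay mostly above the all-gene median. Of 26, 25 were higher in CD8-IFNγRKO (24 with an interval above 0, median 0.59), with Ccnd2, a cyclin of early G1, the only lower gene (-0.04). In summed CPM the other base cells shifted in the same directions. Cell cycle genes were at 6670 in CD8-IFNγRKO and 4510 in control there, beside 5721 and 3929 in Tcf7+ Pdcd1+ cells. Inhibitory receptors were at 1867 and 2780 there, beside 1567 and 2056. Of the 20 single genes with the highest and lowest ratios, 16 moved by over 1.5 times when membership was called after thinning to 1600 UMIs (92 and 41 cells) and 9 among cells with a receptor contig, and 1 changed sign in each case, so the sizes below hold for the cells as chosen by all their UMIs.

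Among the cell cycle genes Mki67 was at 170 CPM in CD8-IFNγRKO and 112 in control Tcf7+ Pdcd1+ cells (0.60, 0.38 to 0.83) and Top2a, a topoisomerase of dividing cells, at 217 against 128 (0.76, 0.56 to 0.97). Aurkb, a mitotic kinase, was at 1.06 and the histone gene Hist1h2ab at 1.05, both among the 10 highest. The other base cells had similar ratios, 0.54 for Mki67, 0.60 for Top2a, 0.70 for Aurkb and 0.96 for Hist1h2ab. Myc, a driver of growth, was at 116 against 48.6 CPM (1.23, other base cells 1.13). With membership called after thinning Myc was at 0.41, Aurkb at 3.29 and Hist1h2ab at 3.04, so their nearness to the other base cells depended on how the cells were chosen.

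Stress genes made up part of the higher end. Hspa1a, an inducible heat shock protein, was at 815 CPM in CD8-IFNγRKO and 201 in control (2.02, 1.87 to 2.17, other base cells 1.88), and Hspa1b, its twin gene, with which it shares near-identical sequence, was at 1.88 (1.65). Of 12 heat shock genes 10 were higher (median 0.59). Their sum was 12816 against 9232 CPM, and 12559 against 8463 in the other base cells. Fos, an immediate early gene, was at 376 against 154 CPM, a ratio of 1.28 (1.11 to 1.47), and at 0.30 in the other base cells, a difference of 0.98 (0.80 to 1.16). As a group the immediate early genes had no such shift, with 6 of 14 higher and a median of -0.27, and Nr4a1, a TCR-induced nuclear receptor, was at -1.11. Mri1, an enzyme of methionine salvage, was at 1.13 (0.74).

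Effector products moved in both directions between genotypes, 6 of 22 being higher and 16 lower (median -0.44). Their sum was 11237 CPM in CD8-IFNγRKO against 15088 in control, and 16274 against 22303 in the other base cells. The median was -0.22 with the mean CPM of single cells and -0.02 among cells with a receptor contig, so that its distance from 0 depended on which cells were used and how they were weighted. Gzmc, granzyme C, was at 470 CPM in CD8-IFNγRKO and 110 in control (2.08, 1.89 to 2.30), more than in the other base cells (1.49, difference 0.59, 0.39 to 0.79). Its ratio was 3.71 with membership called after thinning and 4.88 among cells with a receptor contig. Gzma, granzyme A, was at 1.22 (1.97), or -0.65 with membership called after thinning. The neighbouring genes Gzmd (-2.44) and Gzme (27.0 against 150 CPM, -2.43) were lower, as in the other base cells (-2.73 and -2.85), but at -0.35 and -1.40 with membership called after thinning. Spp1 was at -1.49 (-1.63), but at 0.61 among cells with a receptor contig, and Areg, the growth factor amphiregulin, at 6.08 against 55.0 CPM (-2.98, other base cells -3.08). Xcl1 was higher at 1.44 (1.64), or 0.61 in cells with at least 2 UMIs of each gene of the rule, and the chemokine Ccl5 lower at -1.04 (-1.58). Csf1, a macrophage growth factor (-1.63 and -1.90), Tnfsf11, which encodes RANKL (-1.63 and -1.52), and Serpine2, a secreted protease inhibitor (-1.88 and -2.14), had ratios near those of the other base cells. With membership called after thinning Tnfsf11 was at -0.74 and Serpine2 at -0.65. With at least 2 UMIs of each gene of the rule Tnfsf11 was at -2.44.

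Interferon-linked genes held the largest difference. Ifitm1, an interferon-inducible membrane protein, was at 6.08 CPM in CD8-IFNγRKO and 114 CPM in control Tcf7+ Pdcd1+ cells, a log2 ratio of -4.03 (-4.92 to -3.61). In the other base cells it was at 35.4 and 156 CPM (-2.11), and the ratios differed by -1.92 (-2.54 to -1.30). In Tcf7+ Pdcd1- cells it was at 1.03 CPM and 0. Across the 39 interferon response genes no such shift was seen, with 22 higher, 17 lower and a median of 0.05. Irf1 was at 256 against 320 CPM (-0.32, other base cells -0.76). The ratio differed from that of the other cells by 0.44 (0.29 to 0.59), so for Irf1 the gap between genotypes was smaller in Tcf7+ Pdcd1+ cells. This is a single gene, and the IFNγ response as a whole was not tested. Serpinb1a, a protease inhibitor (14.5 against 52.0 CPM, -1.77, difference from the other base cells -0.98, -1.46 to -0.50), and Il1r2, a decoy receptor of interleukin 1 (32.5 against 110, -1.73, difference -0.82, -1.14 to -0.50), were lower by more than in the other base cells. This depended on how the cells were chosen: after thinning Il1r2 was at -0.56, nearer to 0 than the -0.90 of the other base cells, and Serpinb1a at -3.52, and with at least 2 UMIs of each gene of the rule Serpinb1a was at -0.96, close to the -0.79 of the other base cells.

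**Figure D5:**
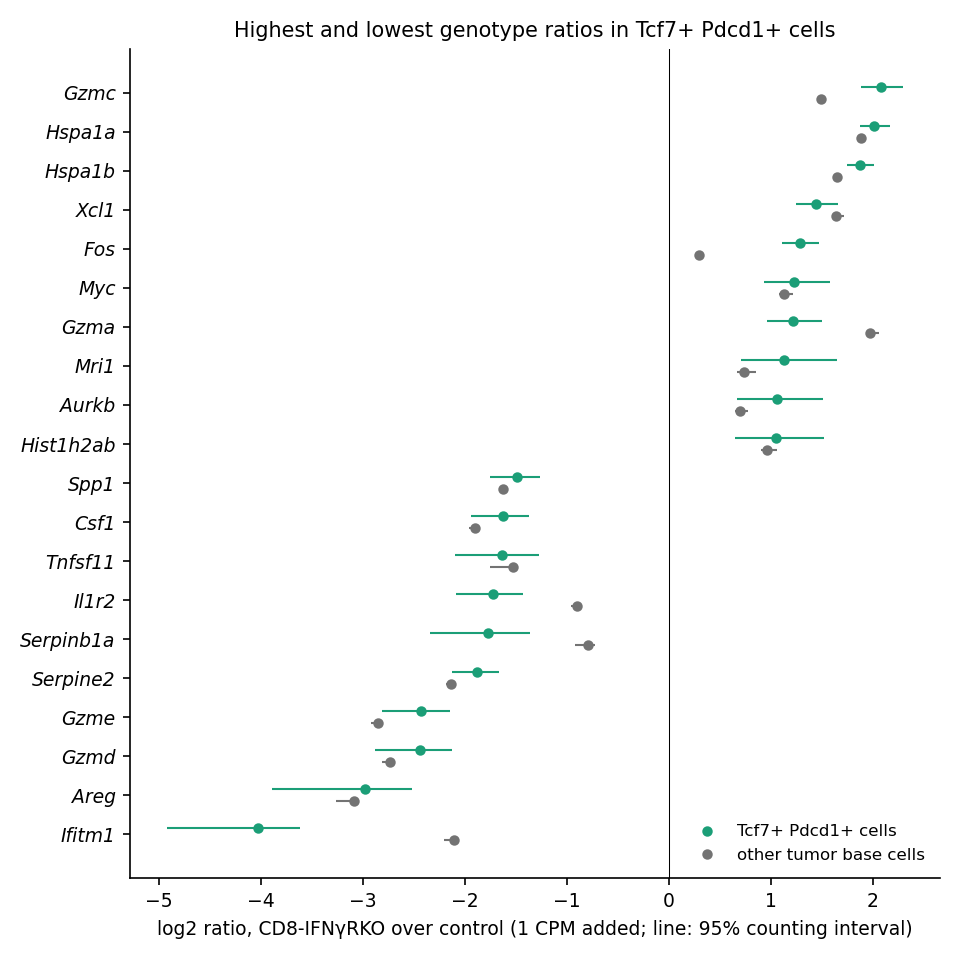
Log2 ratio of pooled CPM, CD8-IFNγRKO over control, in Tcf7+ Pdcd1+ cells beside the other tumor base cells for the 10 highest and 10 lowest genes (lines, 95% counting intervals). Both kinds of cell had the same sign for all 20 genes, and the pairs farthest apart were those of Ifitm1 (-4.03 against -2.11), Fos (1.28 against 0.30), Serpinb1a (-1.77 against -0.79), Il1r2 (-1.73 against -0.90), Gzma (1.22 against 1.97) and Gzmc (2.08 against 1.49).

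Among inhibitory receptors, Lag3 was at 421 CPM in CD8-IFNγRKO and 604 in control (-0.52), Havcr2 at 113 and 176 (-0.63) and Ctla4 at 382 and 516 (-0.43). For Lag3 the gap was narrower than in the other base cells (-0.82, difference 0.30, 0.19 to 0.41). Of the stem-like genes, Klf2 was higher in CD8-IFNγRKO (512 against 289 CPM, 0.82, 0.69 to 0.96) and Ccr7 lower (259 against 334, -0.36, -0.51 to -0.22). Glycolysis genes were higher in 12 of 15 cases (median 0.28), and T cell identity genes were lower in 13 of 13 (10 with an interval below 0, median -0.21). In summed CPM the other base cells shifted in the same directions. Glycolysis genes were at 22181 in CD8-IFNγRKO and 16973 in control there, beside 17049 and 14763 in Tcf7+ Pdcd1+ cells. T cell identity genes were at 9355 and 12081 there, beside 8887 and 10139. Homing genes (0.08), Wnt pathway genes (0.16), cytokine receptors (-0.20), costimulatory receptors (-0.25), survival genes (-0.16), effector transcription factors (-0.13) and the stem-like signature (-0.01) had medians between -0.25 and 0.16. The cells of the genotypes had similar median depth, but at 10000 UMIs or more the contig share was 30.5% (46 of 151) in CD8-IFNγRKO and 14.5% (11 of 76) in control, and its part in these ratios was not tested. Any difference between the pooled mice or libraries cannot be told apart from genotype.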

How the data were processed

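The deposited matrices hold raw UMI counts per gene and barcode, which the authors made from 10x 5′ libraries with Cell Ranger 6.0.0 (multi) and the mm10 reference transcriptome of 32285 genes, with barcodes called as cells. The deposited receptor tables hold filtered contigs with their UMI counts for the 2 tumor libraries. GEO's labels gave tissue and genotype. Cells were filtered as in the study's methods (200 to 6000 genes, at most 3% mitochondrial UMIs, and Cd2, Cd8a and Cd8b1 each detected). Its filter on cells dominated by large genes was used only as an alternative, and its removal of a macrophage cluster was not repeated. No doublet caller was run, and doublets were kept. Free RNA in droplets adds UMIs to cells that do not express a gene.

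UMIs of a group were summed and scaled to CPM. Levels have 95% Poisson intervals, shares exact (Clopper-Pearson) binomial intervals, and log2 ratios, with 1 CPM added, conditional binomial intervals of the plain ratio. For genes of few UMIs the added CPM can move the ratio out of its interval, so levels are given. Genes were counted past 2-fold with at least 50 CPM in either group and 100 UMIs over both, and list medians used genes with at least 20 UMIs. Named genes were members of the lists, and the 10 highest and 10 lowest ratios past these floors (for the comparison with other cells by the mean of both libraries, same sign), leaving out Tcf7, Pdcd1, receptor segments, mitochondrial, ribosomal protein and sex-linked genes and unnamed gene models. Clones used the chain with the most UMIs. The cells and the 25 lists (422 genes) were chosen with earlier results of these data known. With 1 library per genotype no test was run. On simulated counts, intervals held the true ratio for 96.5%, 96.5% and 94.5% of 200 changed genes in the CD8-IFNγRKO, control and genotype comparisons (3101, 3019 and 3090 genes). Thinning was hypergeometric, and 17 alternatives were tried. The work was done in Python 3.11.15 with pandas 2.3.3, numpy 2.4.6, scipy 1.17.1 and matplotlib 3.10.9.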

Additional observations from a re-analysis of the deposited data

Results flagged for a closer look

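For several genes the ratio of Tcf7+ Pdcd1+ to other tumor base cells had opposite signs in the libraries, with both counting intervals clear of 0. With 1 library per genotype, the difference was not tested. Genes of MHC class I, which presents peptides to CD8 T cells, were among them, with log2 ratios of 0.10 in CD8-IFNγRKO and -0.11 in control for B2m, 0.053 and -0.18 for H2-D1, and 0.14 and -0.13 for H2-K1. The receptor signaling chain Cd247 had 0.17 and -0.24, the costimulatory receptor Cd27 0.11 and -0.14, the common cytokine receptor chain Il2rg 0.22 and -0.12, and the tetraspanin Cd82 0.20 and -0.13. The early growth response gene Egr1 had the widest gap, 0.41 and -0.69, followed by the chemokine gene Ccl5 with 0.039 and -0.50. Gbp6, a guanylate-binding protein, had 0.24 and -0.17, Shisa5 0.29 and -0.07, the AP-1 member Jund 0.088 and -0.04, and Ranbp1, a nuclear transport factor, -0.13 and 0.18. Between genotypes, a few genes had opposite signs in Tcf7+ Pdcd1+ and in other base cells, again untested. These were Dusp1, a phosphatase of the immediate early response (0.49 and -0.12), the respiratory chain gene Cox7a2l (0.37 and -0.05), the interleukin 10 receptor chain Il10ra (0.32 and -0.04) and Hspa5, a chaperone of the endoplasmic reticulum (-0.17 and 0.02).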

How the results depend on the processing

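The CD8-IFNγRKO share of Tcf7+ Pdcd1+ cells was the higher one under every alternative run, although within bins of depth it was lower in 2 of 10, and the clone shares moved by less than their counting intervals. No paired analysis was possible because each genotype was taken as 1 library, and for the same reason no replicate was left out. What follows gives CD8-IFNγRKO first and control second, and the cause of the moves was not tested. With at least 2 UMIs of each gene the shares were 1.89% and 1.11% (difference 0.775 points), 14 genes were 2-fold lower than in other cells in control and 47 higher between genotypes, and medians moved to 0.997 for stem-like surface markers (CD8-IFNγRKO), -0.68 for effector products (CD8-IFNγRKO; -0.65 between genotypes) and -0.42 for cell cycle genes (control; 0.91 between genotypes). With membership called after thinning to 1600 UMIs, which left 92 and 41 cells, the shares were 1.10% and 0.640% (difference 0.460). Then 76 and 110 genes were 2-fold higher than in other cells and 41 and 113 lower, and 10 were lower between genotypes. Medians were 1.22 for stem-like transcription factors (control), 0.85 for surface markers (CD8-IFNγRKO), -0.35 for effector products (control; -0.65 between genotypes), -0.67 and -1.27 for cell cycle genes (1.04 between genotypes), 0.45 for interferon response genes (control; -0.15 between genotypes) and -0.24 and -0.23 for heat shock genes. Ratios to other cells changed sign for Gzme (1.10), Gzmf (1.01), Spp1 (0.23) and Xcl1 (-0.066) in CD8-IFNγRKO and for Ccl3 (0.055) and Xcl1 (-0.33) in control, and Gzma did so between genotypes (-0.65). At 5000 UMIs the shares were 2.48% and 1.61% (difference 0.868). Among cells with a receptor contig, an alternative chosen after seeing the data, the shares were 2.95% and 1.77%, 58 and 83 genes were 2-fold higher than in other cells, 32 and 104 lower, and 40 higher between genotypes. In control, medians to other cells were 1.28 for stem-like transcription factors (-0.49 between genotypes), 1.50 for surface markers, -0.75 for inhibitory receptors, -1.08 for effector products (-0.017 between genotypes), -0.51 for cell cycle genes (-0.47 in CD8-IFNγRKO) and -0.18 for heat shock genes (0.82 between genotypes). B cell markers (-0.25) and Spp1 (0.61) changed sign between genotypes there.

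Adding 10 CPM left 3 genes 2-fold lower in CD8-IFNγRKO and gave medians of 0.81 for stem-like transcription factors (CD8-IFNγRKO) and 0.67 and 0.65 for surface markers. At 200 CPM or more, 6 and 3 genes were higher than in other cells, 2 lower in CD8-IFNγRKO, and 5 higher and 6 lower between genotypes. With no CPM floor and 20 UMIs these counts were 195 and 215 higher, 49 and 170 lower, and 154 and 98 between genotypes. Leaving receptor, heat shock, ribosomal and mitochondrial genes out of the total gave 26 higher in control, and Tcf7- Pdcd1+ cells as the reference gave 9 lower in CD8-IFNγRKO. The mean CPM of single cells gave 33 higher and 14 lower in control, 8 lower in CD8-IFNγRKO and 30 higher between genotypes, with CD8-IFNγRKO medians of 0.80 (transcription factors), 0.87 (surface markers) and -0.070 (heat shock) and -0.22 for effector products between genotypes. Ifitm1 stayed lower in CD8-IFNγRKO throughout, between -4.54 and -2.95. Over all settings together, 605 of the single named genes' ratios stayed within their counting intervals, 187 moved with the same sign and 8 changed sign. This total includes settings that hardly change the cells or counts. With membership called after thinning, 7 stayed, 46 moved and 7 changed sign. Among cells with a receptor contig, 11 stayed, 48 moved and 1 changed sign. Low depth limits genes such as Cxcr5 and Itgae, and the number of mice behind each library's pool limits every genotype comparison.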
